A study of Homo sapiens with 4 samples.

Results

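The cytochrome P450 genes are taken here as the protein-coding genes of GENCODE 44 whose symbol is CYP followed by a number, a letter and a number. The rule gave 56 of 20046 protein-coding genes, on 15 chromosomes. A POLR2A HiChIP loop was assigned to one of these genes when 1 of its anchors overlapped the gene body or the 10 kb on either side. A total of 142 of the 66417 loops listed for mock-treated HepG2 cells and 38 of the 18778 loops listed for PDS-treated cells met this rule.

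Cytochrome P450 enzymes are haem proteins that insert oxygen into their substrates with electrons from NADPH. Liver P450s of the CYP1, CYP2 and CYP3 families clear drugs and other foreign compounds, and other families make or break down bile acids, steroid hormones, vitamin D, retinoids and fatty acids. In hepatocytes many of these genes are controlled by ligand-activated receptors that bind promoters and distal enhancers, and contacts between such elements are a part of their regulation.

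HepG2 cells derive from a human hepatocellular carcinoma. They were mock-treated with water or treated with 20 µM pyridostatin (PDS), a small-molecule ligand of G-quadruplexes (G4s), for 24 h, and there were 2 replicates per condition. HiChIP joins DNA fragments that lie close together in chromatin and enriches the junctions with an antibody, here against POLR2A, the largest subunit of RNA polymerase II. The reported unit is the paired-end tag (PET), 1 read pair that joins both anchors of a loop.

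The authors deposited 1 combined list per condition with the whole-number PET count of each loop, not scaled for depth. Hence there was no spread between replicates, no test between conditions could be made, and all intervals below are 95% intervals that cover counting error only. Loops were listed from 3 PETs upwards, and a loop described below as missing or not listed can have had up to 2 PETs. The number of sequenced read pairs was not given with the lists. A lower number of loops in the PDS list cannot be told apart from a list made from fewer read pairs, and fewer cells with a contact cannot be told apart from fewer ligations per cell. All 10 hepatocyte lineage genes examined (ALB, AFP, APOA1, APOA2, SERPINA1, TTR, FGB, TF, HNF4A and FOXA2) had mock loops, between 4 and 39 each. Over all protein-coding genes, 77.3% had a mock loop and the median was 3. Of 4 genes of other cell types, PTPRC had no loop, while CD3E, COL1A1 and PECAM1 had 4, 7 and 12 mock loops, so loops in the 10 kb window were also listed at genes of other cell types.

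Several stretches of the reference are shown first, because the study asked whether G4s take part in these contacts and the P450 start-site anchors differ in whether they hold a G4 motif. The motif sought, on both strands, has 4 runs of 3 or more G with spacers of 1 to 7 bases. In the following sequences capitals mark the G runs, and each lies in an anchor that holds an annotated start site of its gene (GRCh38).

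CYP1A1, chr15:74725671-74725694, plus strand, 146 bp upstream of the gene start: GGGcggcGGGGGtGGGGGGtcGGG

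CYP20A1, chr2:203238169-203238189, minus strand, 798 bp upstream: GGGGtGGGcaGGGGtaGGGGG

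CYP24A1, chr20:54174092-54174118, plus strand, 119 bp upstream: GGGacgcGGGacccaGGGGaGGGGGGG

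CYP26B1, chr2:72147875-72147897, plus strand, 24 bp upstream: GGGGGaGGGGaGGGcccgacGGG

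CYP2D6, chr22:42131228-42131251, minus strand, 374 bp upstream: GGGcaggtGGGGGtaGGGaaaGGG

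CYP2D7, chr22:42144901-42144924, minus strand, 335 bp upstream of its nearest annotated start: GGGcaggtGGGGGtaGGGaaaGGG

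The motifs of the paralogues CYP2D6 and CYP2D7 are identical, and the CYP1A1 motif also lies, on the other strand, in the promoter stretch shown next. The anchors at the CYP1A1 and CYP26B1 start sites hold 11 motifs each, whereas those at CYP27A1 and CYP3A7 hold none. For contrast, the 250 bases before the RefSeq start (GRCh38.p14) are shown for CYP1A1, which has a motif there, and for CYP3A7, which has none. Capitals mark TATAAA, the TATA box core, and GCGTG, the core of the site bound by the AHR receptor.

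CYP1A1, chr15:74725529-74725778, minus strand: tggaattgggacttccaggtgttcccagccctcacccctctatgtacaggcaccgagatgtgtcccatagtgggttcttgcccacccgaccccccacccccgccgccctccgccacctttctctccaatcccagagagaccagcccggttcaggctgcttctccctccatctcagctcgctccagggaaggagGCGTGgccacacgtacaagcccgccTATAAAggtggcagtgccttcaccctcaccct

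CYP3A7, chr7:99735197-99735446, minus strand: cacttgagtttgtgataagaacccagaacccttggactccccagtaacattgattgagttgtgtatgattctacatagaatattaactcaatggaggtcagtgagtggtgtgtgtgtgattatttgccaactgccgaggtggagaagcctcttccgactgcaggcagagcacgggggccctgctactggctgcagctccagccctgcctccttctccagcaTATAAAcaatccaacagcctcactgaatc

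RefSeq promoter windows, from 250 bases before to 50 bases after a start, were at hand for 39 of the 56 P450 genes, 52 windows in all. TATAAA or its reverse complement TTTATA was in 34.6% of these windows and in 11.5% of all 35116 windows. A G4 motif was in 21.2% of the P450 windows and in 25% of all windows, and GCGTG or its reverse complement CACGC was in 25% and 36.5%. These letters are a description of the windows and not binding sites.

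The share of P450 genes with a loop, and the ratio of PDS to mock loop numbers, differed from those of all genes by less than the counting error. At least 1 mock loop was listed for 39 of the 56 genes (69.6%, Wilson interval 56.7 to 80.1%), beside 77.3% of all protein-coding genes. At least 1 PDS loop was listed for 24 genes (42.9%, 30.8 to 55.9%), beside 48.0% of all genes. The median P450 gene had 2 mock loops and the median protein-coding gene 3, and both medians were 0 in the PDS list. The P450 genes were somewhat shorter, with a median length of 21.9 kb against 27.4 kb, and longer genes have larger windows.

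The P450 loops numbered 142 in the mock list and 38 in the PDS list, and the ratio of PDS to mock loops was 0.268 (0.187 to 0.382). The ratio of the whole lists was 0.283 (0.278 to 0.287), which lies inside that interval, and that of loops at any protein-coding gene was 0.269. In PETs, the P450 loops went from 482 to 122, a ratio of 0.253. If each mock P450 loop is given the ratio of its own chromosome, 38.0 PDS loops result, and 38 were listed. Of the 40 P450 genes with a loop in either list, 38 had fewer PDS than mock loops (95%, beside 90.7% of all such genes). The remaining pair, CYP2B6 and CYP2S1, had more PDS loops (5.0%, beside 3.72%). No PDS loop was listed for 16 of the 39 genes with a mock loop (41.0%, beside 40.3%).

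**Figure D1:**
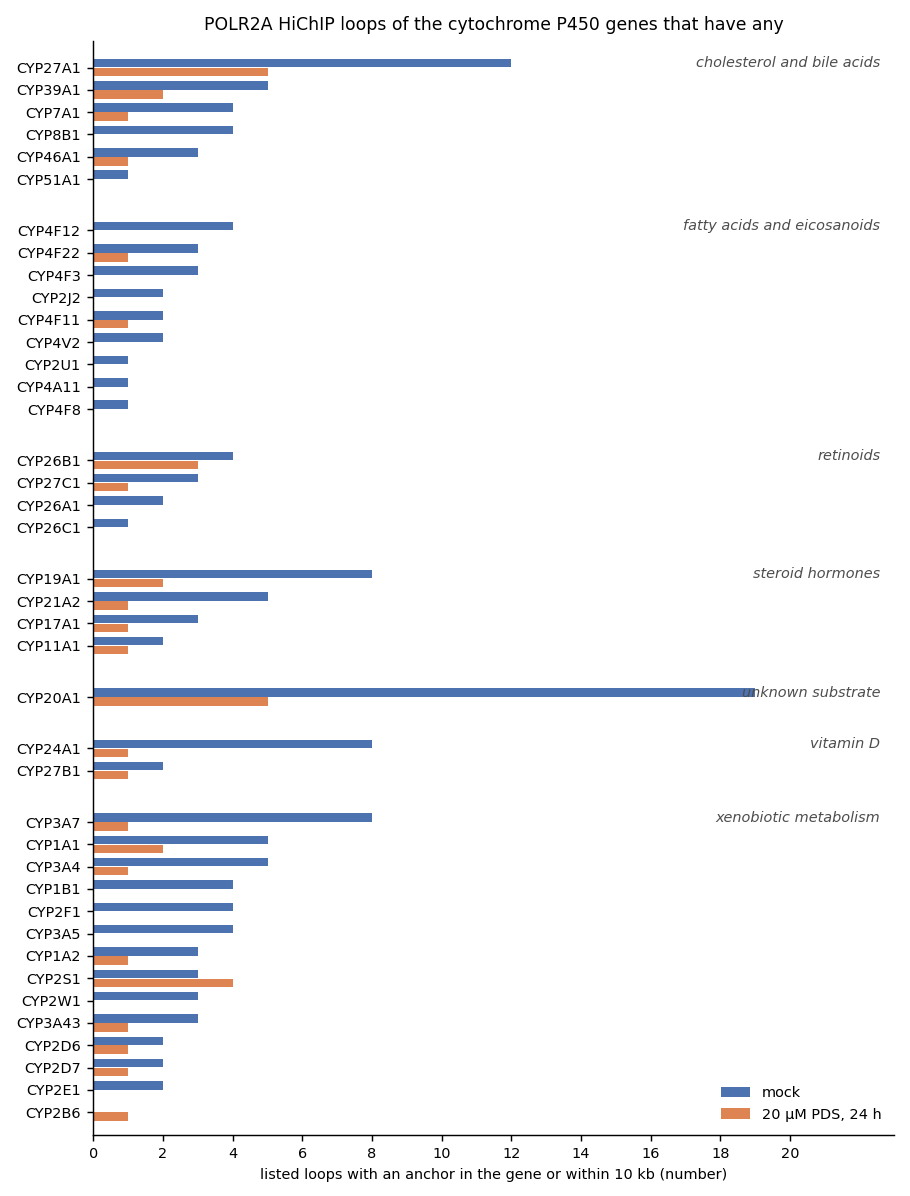
Listed loops (horizontal axis, number) of the 40 cytochrome P450 genes with a loop in either list, grouped by role, in mock-treated (blue) and PDS-treated (orange) HepG2 cells, 1 list per condition. The mock bar is the longer one for 38 genes, CYP20A1 has the most loops (19 mock and 5 PDS), and CYP2S1 and CYP2B6 have the longer PDS bar.

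P450 loops were mostly weak. Of the 142 mock loops, 107 (75.4%) had the minimum of 3 PETs, beside 59.9% of all mock loops, and 15 (10.6%) had 5 or more, beside 18.4%. The highest mock count was 7 PETs, near CYP2E1, and the highest PDS count was 5 PETs, at the CYP20A1 start site. Both lists shared 15 P450 loops, which is 10.6% of the mock loops (6.51 to 16.7%) and 39.5% of the PDS loops (25.6 to 55.3%), beside 11.0% and 39.1% over the whole lists. Mock loops of the whole list with more PETs were shared more often, and at the shares of all mock loops with the same PET counts 11.9 P450 loops would have been shared. Of the 15 shared loops, 6 had fewer PETs in the PDS list, 8 the same number and 1 more. This split is limited by the lowest count listed. Of the 15 loops, 8 had 3 PETs in the mock list and could not be listed with fewer. The 5 P450 loops with 6 or 7 mock PETs were all missing from the PDS list. Among all mock loops with 6 and 7 PETs, 26.4% and 34.7% were retained. Of the 10 P450 loops with 5 mock PETs, 4 were retained, beside 18.3% of all mock loops with 5 PETs. Loop numbers of this size are too few to be set apart from those shares.

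Loops at P450 start sites were considered apart, since a loop in the window can belong to a neighbouring gene. An anchor within 1 kb of an annotated start site of a P450 gene was found in 64 mock loops and 22 PDS loops. These were 45.1% of 142 (37.1 to 53.3%) and 57.9% of 38 (42.2 to 72.1%), and these intervals overlap. The ratio of PDS to mock start-site loops was 0.344 (0.213 to 0.555). The ratio for any protein-coding start site was 0.254, inside this interval. The other P450 loops went from 78 to 16, a ratio of 0.205 (0.121 to 0.349). That interval includes the 0.283 of the whole lists and overlaps the interval of the start-site loops. Start-site loops were listed for 27 P450 genes in mock-treated cells (48.2%, beside 59.8% of all genes) and for 15 in PDS-treated cells (26.8%, beside 28.7%). A further 27 mock loops and 4 PDS loops had start sites of other genes and of no P450 gene.

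**Figure D2:**
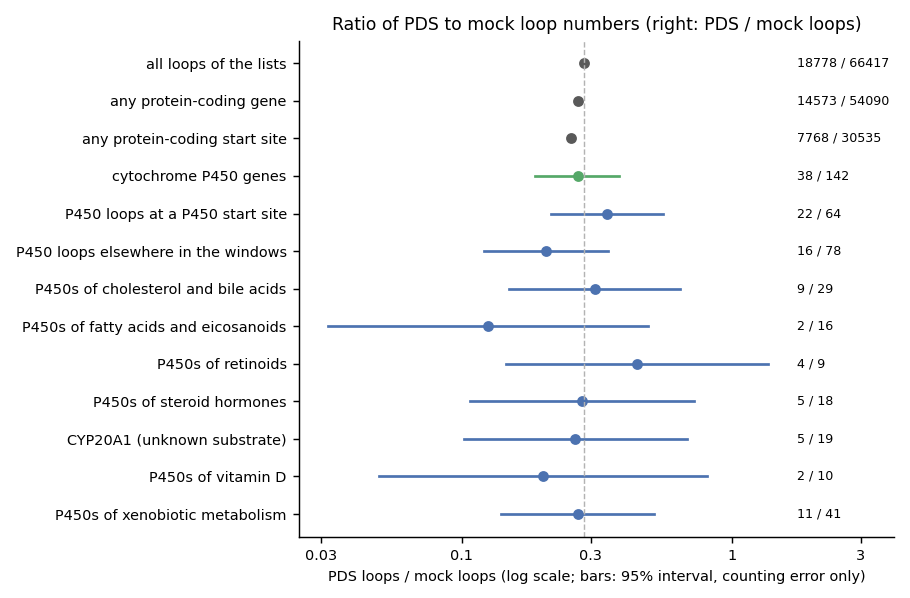
PDS/mock ratio of loop numbers (horizontal log axis) with 95% intervals for counting error, for all loops, for loops of any protein-coding gene or start site (grey), for the P450 genes (green) and for subsets of them (blue), with the PDS and mock loop numbers at the right. The P450 ratio of 0.268 lies near the dashed line of the whole lists at 0.283, and the interval of each role group also spans that line.

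CYP20A1, an orphan P450 whose substrate is not known, had more loops than any other P450 gene (chr2:203238977-203306026, 67.05 kb). Its 19 mock loops comprised 2 with 6 PETs, 1 with 5, 3 with 4 and 13 with 3 PETs. Its 5 PDS loops had 5, 4, 3, 3 and 3 PETs. Loops of both lists reached start sites of ABI2, past the gene end, and some mock loops had no anchor on the gene itself. The loops with 6 PETs joined neighbouring anchors inside the gene, 7.313 and 6.095 kb apart, and neither was in the PDS list. The start-site anchor, which holds the motif shown above, had 5 mock loops, which summed to 16 PETs, and 1 PDS loop of 5 PETs. That PDS loop reached 17.5 kb upstream into NBEAL1 and had 3 PETs in mock-treated cells, the shared P450 loop with a higher PDS count. A start-site loop of 3 mock PETs to the ICA1L start site, 370 kb away, and a loop of 4 PETs over 921 kb from an anchor 8908 bp past the gene end were missing from the PDS list. All 5 PDS loops spanned less than 35 kb.

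Genes of cholesterol and bile acid metabolism gave 29 mock and 9 PDS loops, a ratio of 0.31 (0.149 to 0.645). Mock loops were listed at 6 of 7 genes and PDS loops at 4, beside 77.3% and 48.0% of all protein-coding genes. CYP27A1, the mitochondrial sterol hydroxylase of bile acid synthesis, had 12 mock loops and 5 PDS loops, which summed to 40 and 16 PETs (chr2:218781749-218815293). The mock loops comprised 1 with 5 PETs, 2 with 4 and 9 with 3 PETs, and the PDS loops had 4, 3, 3, 3 and 3 PETs. Of the 5 PDS loops, 3 were also in the mock list, beside 39.1% of all PDS loops. Every anchor of the PDS loops also had a mock loop, but the number of loops per anchor differed. The anchor at the gene start had 6 mock loops with 21 PETs, 4 of which ran upstream towards or into TTLL4 and 2 of which reached TTLL4 start sites, 28 and 36.5 kb away. In the PDS list this anchor kept 1 loop of 3 PETs, to a second annotated start site 23.7 kb downstream, and no upstream loop. The anchor at that second start site had 2 mock loops and 3 PDS loops, with 7 and 10 PETs. No G4 motif was found in either anchor.

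CYP39A1, an oxysterol hydroxylase, had 5 mock loops and 2 PDS loops, all of 3 PETs. The mock loops lay mainly in the 3′ part of the gene and downstream of it, and 1 was at the start site. Both PDS loops were at the start-site anchor, which also holds a start site of SLC25A27, and reached 13.0 kb and, at the TDRD6 start site, 33.9 kb away. CYP7A1, the rate-limiting enzyme of bile acid synthesis, had mock loops of 4, 3, 3 and 3 PETs and 1 PDS loop of 3 PETs. At its start site, mock loops reached 22.5 kb and, at the start site of NSMAF, 157 kb, whereas the PDS loop reached 8.2 kb. CYP8B1, which makes the precursor of cholic acid, had mock loops of 4, 3, 3 and 3 PETs and no PDS loop. All shared an anchor that overlaps the CYP8B1 gene and holds ACKR2 start sites. The other anchor of 1 loop, of 3 PETs, was at the CYP8B1 start site, 22.0 kb away. CYP46A1, the cholesterol hydroxylase of brain, had 3 mock loops and 1 PDS loop from an anchor 4987 bp upstream that lies in HHIPL1. CYP51A1, the lanosterol demethylase of cholesterol synthesis, had 1 mock loop of 3 PETs at its start site. CYP7B1 had none.

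Genes of xenobiotic metabolism gave 41 mock and 11 PDS loops, a ratio of 0.268 (0.14 to 0.516). Mock loops were listed at 13 of 21 genes and PDS loops at 9, beside 77.3% and 48.0% of all protein-coding genes. In the CYP3A cluster on chromosome 7, the loops went from 14 to 3. CYP3A7, the form of fetal liver, had 8 mock loops with 6, 4, 4, 3, 3, 3, 3 and 3 PETs and 1 PDS loop with 4 PETs. The anchor 851 bp inside the CYP3A7 gene start (chr7:99726510-99734345) was the hub of the cluster, with 5 mock loops and 19 PETs, and had no PDS loop. Its strongest loop, of 6 PETs, ran 42.1 kb into CYP3A4, the main drug-metabolising P450 of adult liver, and other loops of 3 PETs reached ZSCAN25 beside CYP3A5 (99.8 kb) and OR2AE1 beside CYP3A43 (145 kb). The PDS loop of CYP3A7 joined 2 anchors that overlap the gene and had 4 PETs in both lists. The loops that linked windows of different CYP3A genes, 6 in the mock list, were all missing from the PDS list. Over the whole lists 11.0% of the mock loops were also in the PDS list, and 6 loops are too few to be set apart from that share. Neither this hub nor its CYP3A4 contact holds a G4 motif.

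CYP3A4 itself had mock loops of 6, 4, 3, 3 and 3 PETs, none at an annotated start site of CYP3A4, and 1 PDS loop of 4 PETs from an annotated internal start site 14200 bp from the gene start. CYP3A5 had mock loops of 6, 3, 3 and 3 PETs and no PDS loop, and all 4 used an anchor 8845 bp past its 3′ end at the start site of ZSCAN25. The number of loops of CYP3A43 went from 3 to 1. Some loops lie in the windows of 2 CYP3A genes, so the mock loops of the single genes sum to more than the 14 of the cluster.

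In the CYP1A cluster on chromosome 15, the loops went from 7 to 2. CYP1A1, which oxidises polycyclic aromatic compounds and is a main target of AHR, had 5 mock loops with 5, 5, 4, 3 and 3 PETs and 2 PDS loops with 3 and 3 PETs, all at the start-site anchor chr15:74721622-74736288. The PDS loops were also in the mock list, where they had 5 and 3 PETs. One of them ran 33.8 kb to an anchor 2700 bp past the 3′ end of CYP1A2, and was the single PDS loop whose anchors lay in separate windows of different P450 genes, beside 7 such mock loops. Loops with both anchors in the window of 1 gene, as between the CYP4F3 and CYP4F12 start sites, are not in these counts. The 45.7 kb loop into EDC3, with 5 mock PETs, was missing. The CYP1A1 anchor is 14.7 kb wide and holds 11 motifs, and 2 of its 5 mock loops were also in the PDS list. The CYP3A7 hub is 7.8 kb wide and holds none, and 0 of its 5 mock loops were. Counts of this size do not separate the anchors. CYP1B1, an extrahepatic member of the family, had 4 mock loops of 3 PETs each from an anchor 3477 bp upstream and no PDS loop.

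**Figure D3:**
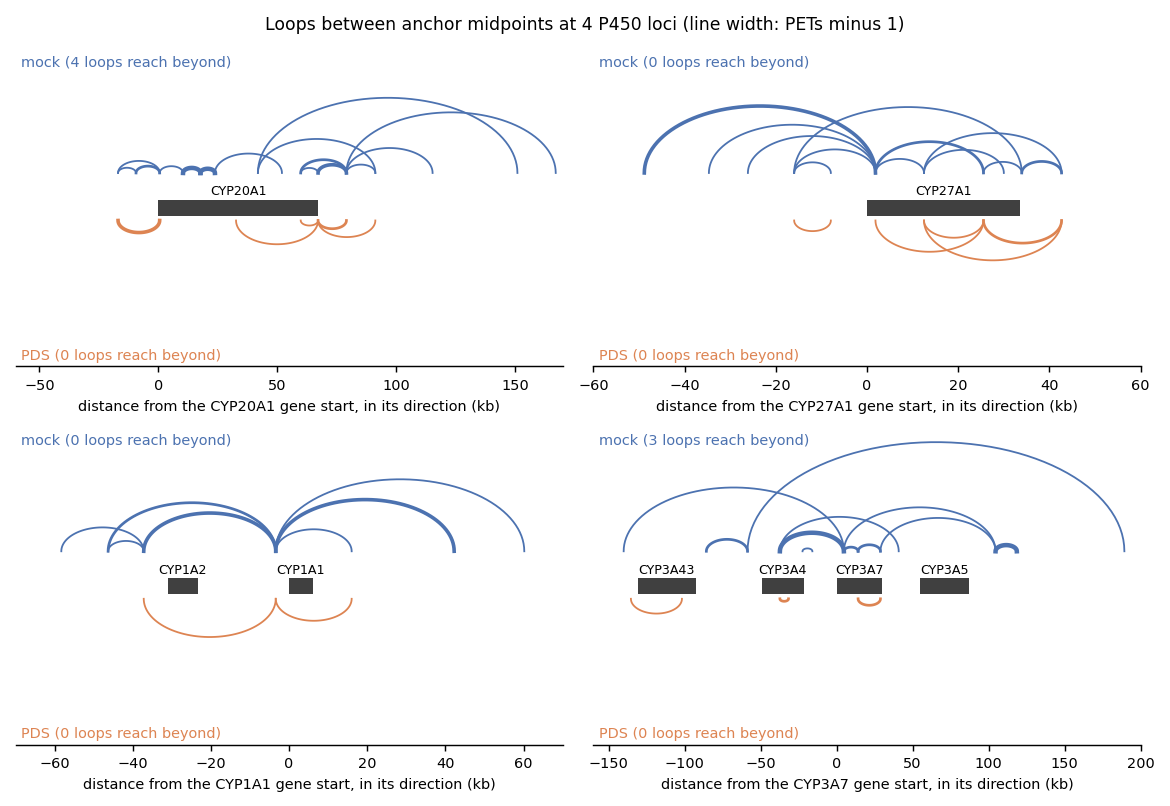
Loops at CYP20A1, CYP27A1, CYP1A1 with CYP1A2, and the CYP3A cluster, drawn as arcs between anchor midpoints against the distance from a gene start (horizontal axis, kb, in the direction of that gene) with mock loops above and PDS loops below the gene bars and line width set by the PETs. At CYP27A1 the arcs from the gene start to upstream are among the mock arcs alone, and in the CYP3A panel no PDS arc joins 2 genes.

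The CYP2 genes of this group were sparse. On chromosome 19, CYP2S1, an extrahepatic P450, had 3 mock loops with 4, 3 and 3 PETs and 4 PDS loops with 4, 3, 3 and 3 PETs. Its start-site anchor had 2 loops in each list, 1 of them shared, and holds 8 motifs. CYP2B6, a drug-metabolising liver P450, had no mock loop and 1 PDS loop of 3 PETs, from an anchor 650 bp past its 3′ end, the lowest count listed. CYP2F1, a P450 of lung, had mock loops of 5, 3, 3 and 3 PETs and no PDS loop, and its 5-PET loop ran 311 kb. P450 loops on chromosome 19 went from 17 to 7, a ratio of 0.412 (0.175 to 0.967), and the 0.203 of all loops of that chromosome lies inside this interval.

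CYP2E1, the ethanol-oxidising P450, had the P450 loop with most PETs, 7 in mock-treated cells and not listed in PDS-treated cells. It spanned 143 kb, and its nearer anchor lay 9668 bp past the gene end, with no protein-coding start site and no motif in either anchor. A second mock loop of 3 PETs had an anchor at the start of the GENCODE gene model, 5845 bp upstream of the RefSeq start. CYP2D6, a drug-metabolising P450, had 2 mock loops of 3 PETs from an anchor 9682 bp past its 3′ end and 1 PDS loop of 4 PETs at its start site. CYP2D7, its paralogue, had mock loops of 4 and 3 PETs, the first at its start site, and shared the PDS loop of CYP2D6. CYP2W1 had 3 mock loops and no PDS loop. No loop was in either list for CYP2A6, which clears nicotine, for CYP2A7 and CYP2A13, or for CYP2C8, CYP2C18 and CYP2C19.

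Genes of fatty acid and eicosanoid metabolism gave 16 mock and 2 PDS loops, a ratio of 0.125 (0.032 to 0.488). This was the lowest ratio of the role groups, and its interval includes the 0.283 of the whole lists. Mock loops were listed at 9 of 14 genes and PDS loops at 2, beside 77.3% and 48.0% of all protein-coding genes. Whether the group departs from these shares was not tested. In the CYP4F cluster of fatty acid hydroxylases the loops went from 10 to 2. CYP4F22, which acts on ceramide precursors in skin, kept a loop of 5 mock PETs and 3 PDS PETs, both anchors of which lie past its 3′ end. CYP4F11 had 2 mock loops of 3 PETs at its start site and 1 PDS loop of 3 PETs at an internal start site. CYP4F12 and CYP4F3 had 4 and 3 mock loops, all of 3 PETs, and no PDS loop. The 3 loops of CYP4F3 were all among those of CYP4F12. Of these, 1 joined start sites of both genes 29.4 kb apart. The others ran from the CYP4F12 start-site anchor, 5910 bp past the CYP4F3 gene end. CYP4F8 and CYP4A11 had 1 mock loop of 3 PETs each at a start site, to OR10H2 and, 284 kb away, to TAL1. CYP4V2 and CYP2U1 had start-site loops in the mock list alone, with 4 and 3 PETs for CYP4V2 and 3 PETs for CYP2U1. CYP2J2, an epoxygenase, had 2 mock loops. CYP4A22, CYP4B1, CYP4F2, CYP4X1 and CYP4Z1 had none.

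Genes of steroid hormone synthesis gave 18 mock and 5 PDS loops, a ratio of 0.278 (0.107 to 0.721). Mock and PDS loops were each listed at 4 of 6 genes, beside 77.3% and 48.0% of all protein-coding genes. No loop was in both lists, with intervals of 0 to 17.6% of the mock loops and 0 to 43.4% of the PDS loops. The shares of the whole lists, 11.0% and 39.1%, lie inside these intervals. CYP19A1, the aromatase that makes oestrogens, spans 130.5 kb and had 8 mock and 2 PDS loops, each of 3 PETs. Of these, 6 mock loops and both PDS loops were at annotated start sites, which are spread over the gene. The PDS loops differed from the mock loops, and 1 of them ran 226 kb into AP4E1, the longest PDS loop of any P450 gene. CYP21A2, a hydroxylase of the adrenal cortex, had mock loops of 5, 4, 3, 3 and 3 PETs and 1 PDS loop of 3 PETs, all from an anchor 1182 bp past its end that holds TNXB start sites and 19 motifs. CYP17A1, the branch enzyme of androgen synthesis, had 3 mock loops and 1 PDS loop, of which 1 in each list was at a start-site anchor shared with WBP1L and pointed into CNNM2. CYP11A1, which starts steroid synthesis by cutting the cholesterol side chain, had 2 mock loops and 1 PDS loop of 3 PETs each, with 1 start-site loop in each list. CYP11B1 and CYP11B2 had none.

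Genes of vitamin D metabolism gave 10 mock and 2 PDS loops, a ratio of 0.2 (0.0493 to 0.812). CYP24A1, which inactivates vitamin D, had 8 mock loops with 5, 4, 3, 3, 3, 3, 3 and 3 PETs and 1 PDS loop with 3 PETs. The PDS loop joined 2 annotated start sites of the gene 13.0 kb apart and had 4 PETs in mock-treated cells. The upstream start-site anchor, which holds 4 motifs, went from 4 loops to this 1, and a mock loop of it reached the BCAS1 start site 174 kb away. CYP27B1, which activates vitamin D, had 2 mock loops, of 5 and 3 PETs, and 1 PDS loop of 3 PETs. These had their start-site anchors at the neighbours CDK4, MARCHF9, OS9, AGAP2 and TSPAN31 and none at CYP27B1. CYP2R1 had no loop.

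Genes of retinoid metabolism gave 9 mock and 4 PDS loops, a ratio of 0.444 (0.145 to 1.36). CYP26B1, which breaks down retinoic acid, had mock loops of 5, 3, 3 and 3 PETs and 3 PDS loops of 3 PETs each. Its start-site anchor, with 11 motifs, went from 3 loops to 2, and the 12.8 kb loop to the adjacent upstream anchor had 5 PETs in the mock list and 3 in the PDS list. Mock loops of 348 and 430 kb were missing from the PDS list. CYP26A1 had 2 mock loops and no PDS loop, 1 of them at its start site and shared with the window of CYP26C1. CYP27C1, a retinoid desaturase, had 3 mock loops and kept 1, of 3 PETs in both lists.

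Few P450 loops of the PDS list were long. At 50 kb or more the P450 loops went from 44 to 4, a ratio of 0.0909 (0.034 to 0.243), beside 0.265 for all loops of that length. Below 50 kb they went from 98 to 34, a ratio of 0.347 (0.235 to 0.511), beside 0.288. Loops of 50 kb or more made up 31% of the mock P450 loops (24.0 to 39.0%) and 10.5% of the PDS P450 loops (4.17 to 24.1%), beside 23.4% and 22.0% over the whole lists. The short end did not follow a single trend, as loops below 10 kb went from 38 to 5, a ratio of 0.132 (0.0534 to 0.324) beside 0.257, while those of 10 to 20 kb went from 28 to 16, a ratio of 0.571 (0.312 to 1.05) beside 0.316. These classes were set after the loops had been seen, and the difference was not tested.

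**Figure D4:**
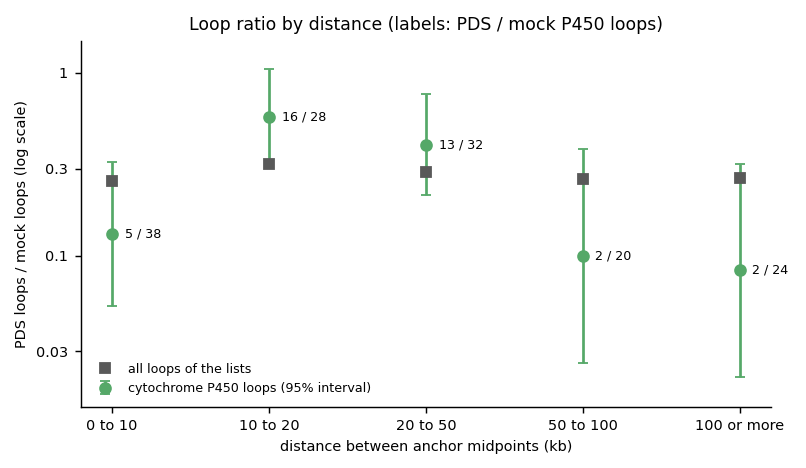
PDS/mock ratio of loop numbers (vertical log axis) in 5 classes of anchor distance (horizontal axis, kb) for P450 loops (green, 95% intervals for counting error) and for all loops of the lists (grey squares), with PDS and mock P450 loop numbers. The grey squares stay between 0.257 and 0.316, and the P450 points range from 0.0833 to 0.571.

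The share of P450 loops with a G4 motif differed from that of all loops by less than the counting error. At least 1 anchor held a motif in 78.2% of the mock P450 loops (70.7 to 84.2%), beside 75.2% of all mock loops, and in 81.6% of the PDS P450 loops (66.6 to 90.8%), beside 75.5%. P450 loops with a motif went from 111 to 31, a ratio of 0.279, and those without one from 31 to 7, a ratio of 0.226, beside 0.284 and 0.28 over the whole lists. At start sites, P450 loops whose start-site anchor held a motif went from 46 to 14, a ratio of 0.304 (0.169 to 0.549), and those whose anchor held none went from 18 to 8, a ratio of 0.444 (0.198 to 1.0). The intervals overlap over most of their width. Anchors with a motif were wider, with medians of 6.5 and 4.77 kb over 28 and 11 start-site anchors, and a wider anchor has more room for a motif. A motif in the reference does not show that a G4 formed in these cells.

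Some P450 genes lie among near-identical copies, where reads cannot be placed with certainty. In the gene and the 10 kb on either side, the share of 100-base windows that occur more than once in GRCh38 had a median of 3.73% over the 16 genes with no loop and 0.504% over the 40 genes with one. It was 5% or more for 6 of the 16 genes and for 4 of the 40. The highest shares were 56.4% for CYP21A2, 29.1% for CYP2D6, 22.0% for CYP4Z1, 16.1% for CYP2A6, 15.1% for CYP2D7 and 15% for CYP2A7. CYP2C8, CYP2C18 and CYP2C19 had 1.49, 1.79 and 8.0%, so most of their windows are unique, and they too had no loop. The part of repeated sequence in the absence of loops was not tested.

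**Figure D5:**
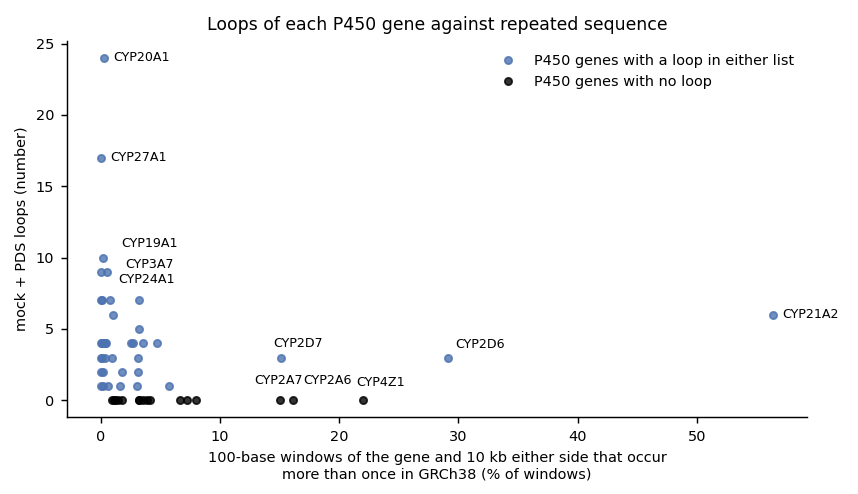
Mock and PDS loops (vertical axis, number) of the 56 P450 genes against the share of 100-base windows of the gene and its 10 kb flanks that occur more than once in the genome (horizontal axis, %), for genes with a loop (blue) and with no loop (black). CYP20A1 and CYP27A1, with most loops, have nearly no repeated windows, and CYP21A2 has the largest share, 56.4%.

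Genes that act with the P450s are given by their counts, beside the 90.7% of all genes with a loop that had fewer PDS than mock loops. Of 8 electron donors and partners, 7 had a loop and all 7 had fewer PDS loops, which is near that background. Their loops summed to 67 in the mock list and 12 in the PDS list. Loops at any protein-coding gene had a ratio of PDS to mock numbers of 0.269. POR, the reductase that supplies electrons to microsomal P450s, went from 10 loops with 49 PETs, all at its start sites, to 1 loop with 3 PETs. The outer mitochondrial cytochrome b5, CYB5B, went from 28 to 4 and its reductase CYB5R3 from 18 to 3, whereas PGRMC1 had no loop. All 13 regulators of P450 genes examined had fewer PDS loops, which is also near the background of 90.7% of genes. Their loops summed to 113 in the mock list and 24 in the PDS list. Whether the sums of these groups depart from the ratio of 0.269 was not tested. HNF4A, a main activator of liver genes, went from 39 to 9, AHR from 18 to 2, and RXRA, the partner of the xenobiotic receptors, from 9 to 0. The AHR gene model spans 429.8 kb, and 4 of its 18 mock loops and 0 of its 2 PDS loops were at a start site. PPARA, the fatty acid receptor that induces CYP4A genes, went from 10 loops with 35 PETs to 6 loops with 27 PETs. The P450 enzymes outside the symbol rule, TBXAS1 and PTGIS, which make thromboxane and prostacyclin, went from 15 to 3 and from 12 to 6.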

How the data were processed

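Per the labels and the methods, the authors aligned paired-end reads to GRCh38 with HiC-Pro 3.1.0 and deposited 1 loop list per condition with whole-number PET counts, unscaled. The loop caller, the way the 2 replicates were combined and the library depths are not given in the sources used here. All 213 anchors of P450 loops had an MboI site at both ends in the reference.

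Loops were assigned by an overlap of at least 1 bp with GENCODE 44 genes extended by 10 kb, and each loop was counted once per set. Loops of both lists were matched on both anchors. Shares have 95% Wilson intervals. For a ratio, the bounds of the share that PDS loops take of mock plus PDS loops were converted into bounds of the ratio. No test was made between conditions.

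The genes and lists were chosen with earlier results of these data known. The genes named were those with a PDS loop, at least 5 mock loops, a mock loop of at least 5 PETs or a start-site loop (37 genes), and the 12 with most mock PETs have all loops given. The other 3 genes with a loop were named after their values were seen, and 1 gene is not reported by name here. P450 genes without an entry among the RefSeq promoters were not searched for motifs there. Overlap counts, matching, motifs and repeated windows were tested on simulated data. Scripts ran in Python 3.11.15 with scipy 1.17.1, pandas 2.3.3, numpy 2.4.6, numba 0.67.0, pysam 0.24.0 and matplotlib 3.10.9, and samtools 1.23.1 indexed the genome. RNA-seq and ChIP-seq data were not analysed here.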

Additional observations from a re-analysis of the deposited data

How the results depend on the processing

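Of 35 alternative values, 21 stayed within 1.5 times the main count, or within the interval of the main ratio or share. With at least 4 PETs, 24 P450 genes had a mock loop, 7 had a PDS loop and 2 loops were shared. With at least 5 PETs these numbers were 14, 1 and 0, and the PDS/mock ratio was 0.0667, beside 0.149 for the whole lists. With start sites in place of windows, 15 genes had a PDS loop. Dividing loop numbers by the list totals gave a ratio of 0.947. With anchors extended by 5 kb, 40 mock P450 loops matched a PDS P450 loop, and several mock loops can then match the same PDS loop. A motif was in 90.1% of mock and 94.7% of PDS P450 loops with spacers of 1 to 12 bases, and in both anchors of 38.0% and 34.2%. The remaining alternatives to the ratio, among them other windows and leaving out CYP20A1, CYP27A1, CYP19A1, CYP24A1 or CYP3A7, gave 0.2 to 0.344. No paired analysis was possible because each condition has 1 combined list without replicate values, and for the same reason leaving out each replicate was not run. Most P450 loops have 3 PETs, so a change of 1 PET moves a loop in or out of a list.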
